A study of Mus musculus with 12 samples.

Results

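The 42 genes described here drive or mark the cell cycle, and they were measured by bulk RNA-seq of sorted mouse hepatocytes. They were chosen by name, by matching the Ensembl identifier of each feature to its gene symbol: all 42 were found once among the 54839 features of the table, and all 42 were among the 17140 genes that passed the filter on low counts. By their main role 16 belong to the G1/S step and DNA replication (called S phase genes here), 24 act from G2 to cytokinesis (mitotic genes), and Ccnd1 and Wee1 were kept apart.

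The libraries came from male p16-Tom mice on a C57BL/6 background, heterozygous for both transgenes. In all of them a tamoxifen-dependent Cre (p16-CreERT2) is driven by p16Ink4a and opens a tdTomato reporter at the Rosa26 locus (R26-CAG-LSL-tdTomato-WPRE), so a cell that transcribes p16Ink4a when tamoxifen is given stays red, whatever it transcribes later. The mice received corn oil or CCl4 (1 mL/kg, every 3 days for 4 weeks), and all received tamoxifen (80 mg/kg). Live hepatocytes were sorted into tdTomato-positive (Tom+) and tdTomato-negative (Tom-) fractions, which gave 4 groups of 3 libraries: Tom- oil, Tom+ oil, Tom- CCl4 and Tom+ CCl4. The age of the mice is not given in the sources used here. The mark is set by the p16Ink4a promoter and not by a hepatocyte promoter, so a red cell of another type would be sorted as Tom+ if it passed the gates.

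A dividing cell first makes D-type cyclins, which with CDK4 and CDK6 inactivate the RB proteins and release the E2F factors. E2F then switches on cyclin E and the machinery that licenses and copies DNA. The mitotic genes come later, through B-MYB and FOXM1 bound to the MuvB complex, and in resting cells the DREAM complex holds them down. p16Ink4a is an inhibitor of CDK4 and CDK6. Adult hepatocytes rarely divide, but they return to the cycle after partial hepatectomy or a toxic injury such as that by CCl4, which is converted to a reactive radical by cytochrome P450 around the central vein. Many hepatocytes are polyploid, since they can replicate their DNA and skip mitosis or cytokinesis.

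The 250 bases before the start of 4 members are shown because the S phase and mitotic genes differed in how far they spread between libraries. Mki67 and Top2a are mitotic genes and Mcm5 and Mcm6 are S phase genes, chosen after their motifs were seen. They do not represent their classes, for which the share of genes with each motif follows below. The sequences are those of RefSeq on GRCm38.p6, read 5′ to 3′ on the strand of the gene, and end before the gene start of the deposited table. Mki67 and Top2a, on the minus strand, cover chr7:135716380-135716629 and chr11:99024190-99024439. Mcm5, on the plus strand, covers chr8:75109259-75109508 and Mcm6, on the minus strand, chr1:128359706-128359955. Capitals mark 3 kinds of motif on either strand: E2F-type sites (TTTCCCGC, TTTCGCGC, TTTGCCGC or TTTGGCGC), CHR elements (TTTGAA or TTCGAA), at which the MuvB complexes bind, and CCAAT boxes (CCAAT), at which NF-Y binds.
Mki67: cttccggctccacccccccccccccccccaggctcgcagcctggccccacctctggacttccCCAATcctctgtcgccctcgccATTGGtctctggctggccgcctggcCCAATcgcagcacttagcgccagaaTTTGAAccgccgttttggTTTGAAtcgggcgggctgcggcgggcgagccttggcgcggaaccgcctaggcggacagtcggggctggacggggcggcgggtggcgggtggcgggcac
Top2a: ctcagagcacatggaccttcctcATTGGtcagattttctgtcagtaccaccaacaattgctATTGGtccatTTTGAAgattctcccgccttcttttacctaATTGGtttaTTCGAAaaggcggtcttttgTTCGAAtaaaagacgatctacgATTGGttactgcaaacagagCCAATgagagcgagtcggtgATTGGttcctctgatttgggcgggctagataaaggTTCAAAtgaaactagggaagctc
Mcm5: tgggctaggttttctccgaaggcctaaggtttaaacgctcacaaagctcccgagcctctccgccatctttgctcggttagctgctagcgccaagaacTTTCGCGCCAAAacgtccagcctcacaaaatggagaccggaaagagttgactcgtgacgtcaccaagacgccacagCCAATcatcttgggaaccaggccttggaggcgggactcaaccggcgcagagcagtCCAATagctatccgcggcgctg
Mcm6: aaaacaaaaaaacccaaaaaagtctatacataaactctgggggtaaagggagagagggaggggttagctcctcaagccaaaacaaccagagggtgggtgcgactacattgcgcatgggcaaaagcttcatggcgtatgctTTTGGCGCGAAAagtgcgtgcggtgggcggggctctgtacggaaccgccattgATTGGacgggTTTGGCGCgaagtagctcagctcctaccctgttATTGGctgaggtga
The windows of Mki67 and Top2a held 2 and 4 CHR matches with 3 and 6 CCAAT boxes and no E2F-type match, whereas those of Mcm5 and Mcm6 held 2 and 3 E2F-type matches, partly overlapping each other, with 2 CCAAT boxes each and no CHR match.

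A promoter was listed for 32 of the 42 members, 13 S phase and 19 mitotic. Ccna2, Ccnd1, Ccne2, Gins2, Mcm4, Aurkb, Foxm1, Kif20a, Tpx2 and Wee1 had none. A CHR match was found in 9 of the 19 mitotic genes (47.4%) and in 3 of the 13 S phase genes (23.1%), beside 19.6% of all 27025 genes of the promoter table. E2F-type matches were found in Mcm5, Mcm6 and Mcm7 (3 of 13, 23.1%) and in Cdk1 alone of the mitotic genes (5.26%), beside 2.16% of all genes. CCAAT boxes were found in 16 of 19 mitotic and 9 of 13 S phase genes (84.2% and 69.2%), beside 37.5% of all genes. The E-box CACGTG, which is bound by MYC, was found in Tyms and Anln alone, and in 6.86% of all genes. These matches describe the letters in the window and are not binding sites shown in these cells.

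Library totals ranged from 37568669 to 75331523 counts. The reporter, the check of the labels, lay between 1316 and 1369 CPM (counts scaled to library size, TMM-normalized) in Tom+ CCl4 and between 120 and 263 CPM in Tom- CCl4. In oil it went against 2 labels: the library labelled Tom- oil replicate 1 had 1794 CPM, and that labelled Tom+ oil replicate 2 had 135 CPM, as against 157 and 143 CPM in the other Tom- and 1547 and 1225 CPM in the other Tom+ oil libraries. The labels were kept, and some of the results that rest on these libraries are also given without them. The summed level of 10 hepatocyte markers was 107732 to 157981 CPM, with none of the markers absent from a library, while 12 lymphocyte and neutrophil markers together reached at most 1.18 CPM. In these bulk libraries, fewer cells in cycle and less of a transcript per cell cannot be told apart.

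The members were transcribed at low levels. Per length of transcript, Ccnd1, which encodes cyclin D1, was the highest (median of 12 libraries 44.2 TPM, counts per length scaled to the same sum in every library) and Pcna, the sliding clamp of the DNA polymerases, the next (18.7 TPM). Cdc20, an activator of the anaphase-promoting complex, had 8.60 TPM and Mcm7 7.17 TPM. At the other end were Cenpf, a kinetochore protein (0.423 TPM), and Bub1, a checkpoint kinase (0.23 TPM). The lowest member count in a library was 2, for Bub1 in Tom- CCl4 replicate 2, where 3 counts correspond to 0.0829 CPM.

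**Figure D1:**
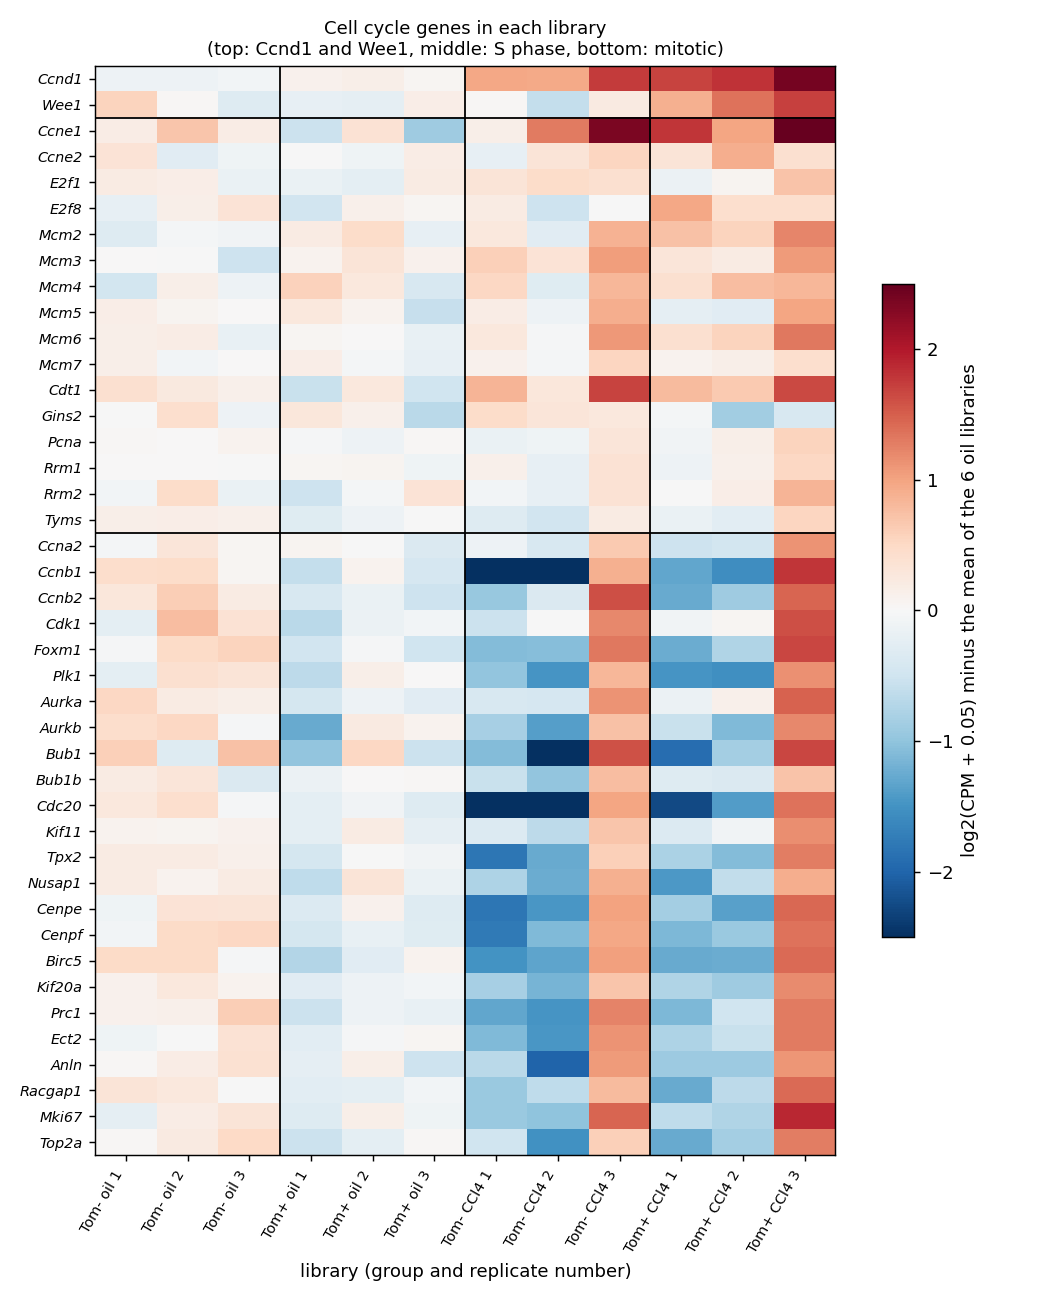
Level of the 42 genes (rows) in the 12 libraries (columns), as log2(CPM + 0.05) minus the mean of the 6 oil libraries, with colours limited to 2.5 in each direction. In CCl4 the 24 mitotic genes are red in replicate 3 of both fractions and mostly blue in replicates 1 and 2, whereas Ccnd1 is red in all 6 CCl4 libraries.

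CCl4 against oil was compared in each fraction, to find which cell cycle genes changed under a repeated injury. Few did. A gene was called at a Benjamini-Hochberg adjusted p under 0.05 over all genes tested by edgeR's quasi-likelihood test, with a log2 fold change beyond 0.75. In Tom- hepatocytes Ccnd1 and Mcm3 rose and 0 of the 42 fell, beside 6.30% of all genes called higher and 1.58% called lower. In Tom+ hepatocytes Ccnd1, Ccne1, Cdt1 and Wee1 rose and 0 fell, beside 2.90% and 2.33%. So 2 of 42 members (Tom-) and 4 of 42 (Tom+) were called, and none of these 6 calls was a mitotic gene.

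Cyclin D1, the D-type cyclin that starts the passage through G1, showed the clearest change. Ccnd1 (ENSMUSG00000070348, mm10 chr7:144929931-144939925) had 55.6, 55.5 and 57.9 CPM in Tom- oil and 64.9, 67.4 and 62.9 CPM in Tom+ oil. With CCl4 it had 118, 116 and 204 CPM in Tom- and 195, 211 and 316 CPM in Tom+. All 6 CCl4 libraries lay above all 6 oil libraries, and the libraries of a group were close in oil and spread in CCl4, with replicate 3 the highest of each fraction. The change was 2.60-fold in Tom- (log2 1.38 ± 0.22 SE, adjusted p = 0.0025) and 3.70-fold in Tom+ (log2 1.89 ± 0.22, adjusted p = 0.00044). Ccnd1 remained called in both fractions under all 26 alternatives, including the one without the 2 oil libraries whose reporter went against the label.

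Cyclin E binds CDK2 at the G1/S step. Ccne1 (ENSMUSG00000002068, chr7:38097984-38107534) was low in oil, with 0.369, 0.542 and 0.368 CPM in Tom- and 0.202, 0.420 and 0.147 CPM in Tom+. Under CCl4 the levels were 0.354, 0.857 and 1.82 CPM in Tom- and 1.22, 0.677 and 2.57 CPM in Tom+. The groups overlapped in Tom- (log2 1.24 ± 0.61, adjusted p = 0.18) and not in Tom+, where Ccne1 rose 5.71-fold (log2 2.51 ± 0.63, adjusted p = 0.023). The call in Tom+ was lost in 7 of 25 alternatives, which include limma-voom and each fit without Tom+ CCl4 replicate 3, Tom+ oil replicate 1 or Tom+ oil replicate 3. Its partner gene Ccne2 had 1.88 to 2.93 CPM over the 6 oil libraries, 2.0, 2.90 and 3.36 CPM in Tom- CCl4 and 2.88, 4.37 and 3.05 CPM in Tom+ CCl4, and was not called (log2 0.26 ± 0.25 and 0.54 ± 0.25).

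The 2 E2F genes did not pass the test. E2f1, an activator of S phase genes, had 3.11 to 4.03 CPM in Tom- oil and 2.94 to 4.02 CPM in Tom+ oil. In the CCl4 groups E2f1 had 4.35, 4.78 and 4.63 CPM in Tom- and 3.16, 3.67 and 5.72 CPM in Tom+. The 3 Tom- CCl4 libraries lay above the 3 of Tom- oil by a small margin (log2 0.32 ± 0.22, adjusted p = 0.35). E2f8, an atypical E2F that represses its targets and takes part in hepatocyte polyploidization, had 9.23, 11.8 and 13.5 CPM in Tom- oil and 12.2, 7.32 and 10.6 CPM in Tom- CCl4, and these groups overlapped. In Tom+ it had 7.62, 11.5 and 10.9 CPM in oil and 20.7, 14.3 and 14.1 CPM in CCl4, without overlap (log2 0.71 ± 0.22, adjusted p = 0.062).

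Licensing factors load the MCM2-7 helicase on origins before S phase. Cdt1, the loader (ENSMUSG00000006585, chr8:122568015-122573554), had 1.69, 1.51 and 1.39 CPM in Tom- oil and 0.838, 1.53 and 0.881 CPM in Tom+ oil. With CCl4 the levels were 2.30, 1.55 and 4.16 CPM in Tom- and 2.22, 2.01 and 4.05 CPM in Tom+. Cdt1 rose 2.54-fold in Tom+ (log2 1.34 ± 0.38, adjusted p = 0.040) and missed the test in Tom- (log2 0.81 ± 0.38, adjusted p = 0.16). Its call in Tom+ was lost in 12 of 26 alternatives, among them the fits without Tom+ CCl4 replicate 3, Tom+ oil replicate 1, Tom+ oil replicate 3, Tom- oil replicate 1 or Tom- oil replicate 2, and the fit without the 2 oil libraries whose reporter went against the label.

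Of the helicase subunits 1 was called. Mcm3 (ENSMUSG00000041859, chr1:20802968-20820312) had 3.09, 3.04 and 2.13 CPM in Tom- oil and 4.67, 3.87 and 6.34 CPM in Tom- CCl4, a 1.81-fold rise without overlap (log2 0.86 ± 0.26, adjusted p = 0.039). In Tom+ it had 3.25, 3.86 and 3.28 CPM in oil and 3.80, 3.52 and 6.49 CPM in CCl4, which overlapped (log2 0.41 ± 0.25, adjusted p = 0.36). Mcm3 lost its call in Tom- in 12 of 26 alternatives, including each fit that left out 1 Tom- oil library, Tom- CCl4 replicate 1, Tom- CCl4 replicate 3 or Tom+ oil replicate 1, and the fit without the 2 oil libraries whose reporter went against the label. Mcm6 had 6.12, 6.30 and 4.82 CPM in Tom- oil and 6.60, 5.39 and 11.7 CPM in Tom- CCl4 (log2 0.47 ± 0.29). In Tom+ it had 5.69, 5.56 and 4.82 CPM in oil and 7.26, 8.19 and 13.8 CPM in CCl4, apart but short of the test (log2 0.86 ± 0.28, adjusted p = 0.081), though DESeq2 called it (adjusted p = 0.027). Mcm2 had 2.16, 2.64 and 2.57 CPM in Tom- oil, 3.14, 3.74 and 2.35 CPM in Tom+ oil, 3.29, 2.24 and 5.03 CPM in Tom- CCl4 and 4.58, 4.02 and 6.41 CPM in Tom+ CCl4. Its fitted change was 0.52 ± 0.28 in Tom- and 0.70 ± 0.28 in Tom+ on the log2 scale, and was not called. Mcm4, Mcm5, Mcm7 and Gins2, a subunit of the GINS part of the helicase, lay between -0.37 and 0.56 in both fractions and were not called.

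None of the genes of DNA synthesis itself passed the test. Pcna had 18.7 to 19.8 CPM in Tom- oil and 17.3 to 19.1 CPM in Tom+ oil. In CCl4 Pcna had 16.7, 17.4 and 23.1 CPM in Tom- and 17.6, 20.8 and 27.4 CPM in Tom+, so that only replicate 3 lay above the oil libraries in Tom- (log2 -0.01 ± 0.15 in Tom- and 0.27 ± 0.15 in Tom+). Rrm2, the regulated subunit of ribonucleotide reductase, had 6.67, 9.61 and 6.25 CPM in Tom- oil, 4.86, 6.82 and 8.96 CPM in Tom+ oil, 6.65, 6.11 and 9.06 CPM in Tom- CCl4 and 6.95, 7.92 and 12.8 CPM in Tom+ CCl4. Its groups overlapped in both fractions. Rrm1, the other subunit, and Tyms, which makes thymidylate, were between -0.31 and 0.23 on the log2 scale.

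WEE1 holds CDK1 inactive and so delays mitosis. Wee1 (ENSMUSG00000031016, chr7:110122046-110143286) had 2.69, 1.86 and 1.43 CPM in Tom- oil and 1.84, 1.19 and 2.11 CPM in Tom- CCl4, and these groups overlapped (log2 -0.20 ± 0.30). In Tom+ it had 1.56, 1.55 and 2.03 CPM in oil and 3.41, 4.69 and 6.03 CPM in CCl4. The Tom+ CCl4 libraries were the 3 highest of the 12, and Wee1 rose 2.75-fold in Tom+ (log2 1.46 ± 0.29, adjusted p = 0.0073). This call held in 25 of 26 alternatives and was lost without both oil replicate 2 libraries (adjusted p = 0.051).

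**Figure D2:**
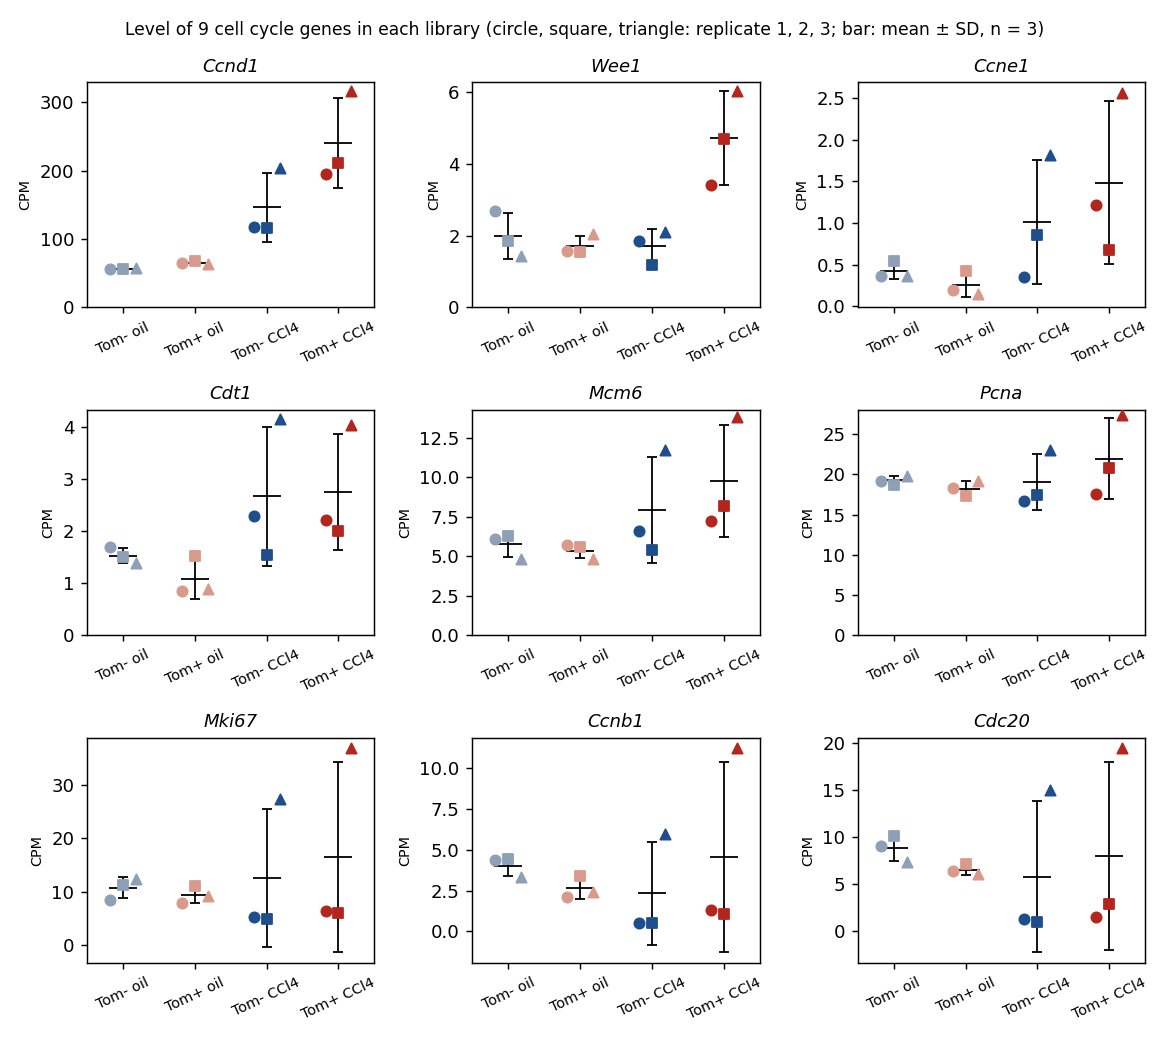
CPM of 9 genes in each library by group, with replicates 1, 2 and 3 as circle, square and triangle and the mean ± SD (n = 3) as bar. Ccnd1 is above oil in all CCl4 libraries, Wee1 is raised in Tom+ CCl4 alone, and for Mki67, Ccnb1 and Cdc20 the triangle of each CCl4 group is far above the circle and square.

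The mitotic genes gave no call in either fraction, and their levels differed widely between the libraries of a CCl4 group. Of the 24, 0 were called by edgeR in either fraction, with 0 at an unadjusted p under 0.05 in both. DESeq2 and limma-voom also called 0 in both fractions (DESeq2 gave no p for 3 of the 24, and had 1 of 21 at an unadjusted p under 0.05 in Tom+). In every one of the 24, replicate 3 was the highest library of Tom- CCl4 and of Tom+ CCl4, and both were above all 6 oil libraries. Over all genes tested, replicate 3 was highest in both CCl4 groups for 21.2% and above all oil libraries in both for 16.8%. In 13 of the 24 the other 4 CCl4 libraries were below all 6 oil libraries at the same time. Both together held for 40 of the 17140 genes (0.233%).

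Mki67, the gene of the proliferation marker Ki-67, had 8.52, 11.3 and 12.5 CPM in Tom- oil and 7.93, 11.1 and 9.21 CPM in Tom+ oil. With CCl4 it had 5.18, 4.95 and 27.4 CPM in Tom- and 6.35, 5.92 and 37.0 CPM in Tom+. Replicates 1 and 2 of both fractions were thus below every oil library, and replicate 3 was above them all. The fitted changes were log2 0.22 ± 0.85 (Tom-) and 0.80 ± 0.85 (Tom+), with a standard error as large as the change or larger.

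Among the cyclins and kinases of mitotic entry replicate 3 was again the highest CCl4 library, by different factors. Ccnb1, cyclin B1, had 4.35, 4.42 and 3.31 CPM in Tom- oil and 2.11, 3.42 and 2.40 CPM in Tom+ oil. After CCl4 cyclin B1 had 0.505, 0.525 and 5.98 CPM in Tom- and 1.28, 1.07 and 11.2 CPM in Tom+. Its partner Cdk1, the kinase of mitosis, spread less: 2.85, 5.85 and 4.37 CPM in Tom- oil, 2.11, 3.07 and 3.23 CPM in Tom+ oil, 2.33, 3.37 and 7.84 CPM in Tom- CCl4 and 3.19, 3.52 and 10.54 CPM in Tom+ CCl4. For Cdk1 replicates 1 and 2 with CCl4 lay within the range of oil. Ccna2, cyclin A2, acts in S phase as well as at mitotic entry and had 3.57 to 5.70 CPM over the 6 oil libraries. In CCl4 the gene had 4.25, 3.48 and 7.31 CPM in Tom- and 3.19, 3.36 and 10.1 CPM in Tom+. Foxm1, the transcription factor of this programme, had 2.03, 2.93 and 3.09 CPM in Tom- oil and 1.47, 2.04 and 1.47 CPM in Tom+ oil. Foxm1 then had 0.960, 0.967 and 5.26 CPM in Tom- CCl4 and 0.849, 1.22 and 6.72 CPM in Tom+ CCl4. Plk1, Aurka and Aurkb, kinases of centrosome and chromosome separation, followed with replicate 3 at 4.84 and 6.03, 9.11 and 11.6, and 2.32 and 3.26 CPM in Tom- and Tom+.

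In Tom- CCl4 the highest library stood farthest above the middle one in Cdc20, which had 6.07 to 10.1 CPM over the 6 oil libraries. With CCl4 it had 1.26, 0.995 and 15.04 CPM in Tom- and 1.54, 2.86 and 19.5 CPM in Tom+. Top2a, the topoisomerase that untangles sister chromosomes, had 7.44, 8.49 and 10.4 CPM in Tom- oil, 4.99, 6.19 and 7.49 CPM in Tom+ oil, 5.15, 2.52 and 11.1 CPM in Tom- CCl4 and 3.003, 4.04 and 17.7 CPM in Tom+ CCl4. Racgap1, which positions the cleavage furrow, had 4.11, 3.91 and 3.23 CPM in Tom- oil and 2.70, 2.75 and 3.11 CPM in Tom+ oil. In CCl4 it had 1.69, 2.07 and 5.66 CPM in Tom- and 1.33, 2.05 and 8.83 CPM in Tom+. The highest CCl4 library exceeded the middle one by 1.72 to 11.9 times over the 24 genes in Tom- (median 3.65) and by 2.09 to 8.77 times in Tom+ (median 4.28). In oil these medians were 1.08 and 1.13.

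S phase genes shared part of this order but little of its size. Replicate 3 was the highest library in 13 of 16 in each CCl4 group, and in 12 of 16 in both. The median ratio of the highest to the middle library was 1.35 in Tom- CCl4 and 1.51 in Tom+ CCl4. None of the 16 had the other 4 CCl4 libraries below all 6 oil libraries. Within a CCl4 group the SD of log2 CPM had a median of 0.37 (Tom-) and 0.43 (Tom+) over the S phase genes and of 1.31 and 1.33 over the mitotic genes, beside 0.20 and 0.19 over all genes tested. In oil the mitotic genes had a median SD of 0.25 in each fraction. The summed level of the 24 mitotic genes was 94.5, 108 and 104 CPM in Tom- oil and 66.9, 86.7 and 78.0 CPM in Tom+ oil. With CCl4 it was 44.5, 39.9 and 178 CPM in Tom- and 46.8, 52.6 and 234 CPM in Tom+. Summed over the 16 S phase genes the level was 91.1 to 102 CPM in oil, 103, 89.0 and 135 CPM in Tom- CCl4 and 110, 110 and 151 CPM in Tom+ CCl4.

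**Figure D3:**
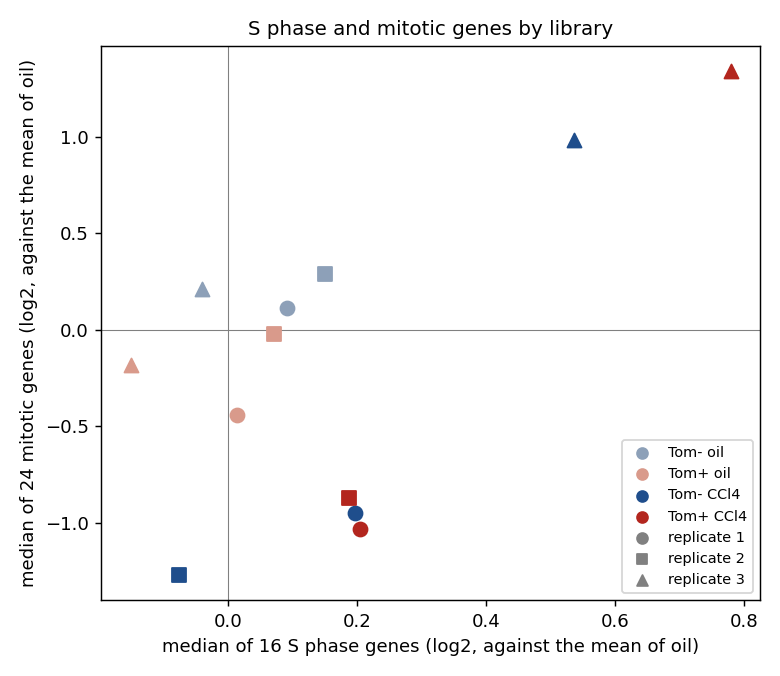
Median log2 deviation from the mean of the 6 oil libraries over the 16 S phase genes (x axis) and the 24 mitotic genes (y axis), 1 point per library, with the group as colour and the replicate number as shape. The 2 CCl4 triangles lie at 0.99 and 1.34 on the mitotic axis and the other 4 CCl4 libraries between -1.27 and -0.87, while the S phase axis spans -0.15 to 0.78.

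The median fitted change with CCl4 was 0.29 over the S phase genes and -0.23 over the mitotic genes in Tom-, and 0.42 and 0.46 in Tom+ (log2), beside 0.00 over all genes in both. The mitotic medians carry a median standard error of 0.72 per gene. They depended on 1 pair of libraries. Without both CCl4 replicate 3 libraries, a choice made after seeing the data, 16 mitotic genes were called lower with CCl4 in Tom-, among them Ccnb1 (log2 -2.96), Cdc20 (-2.96), Cenpe (-1.88) and Mki67 (-1.09). In Tom+ the genes then called lower were Ccnb1 (-1.16), Plk1 (-1.41) and Cdc20 (-1.59). Of all 17285 genes tested in that fit, 239 were called lower in Tom- and 272 in Tom+. Leaving out any other pair of same-numbered libraries called 0 members lower in either fraction. Ccnd1 stayed called without them (1.06 in Tom- and 1.64 in Tom+), as did Wee1 in Tom+ (1.24), whereas Mcm3, Ccne1 and Cdt1 did not. The share of mitochondrial counts was 5.58% in Tom- CCl4 replicate 3, the highest of all, and 3.16% in Tom+ CCl4 replicate 3, within the range of the others. Macrophage markers (12 genes, summed) stood at 179 and 242 CPM in these libraries, as against 143 and 149 CPM in the other Tom- CCl4 and 82.6 and 88.8 CPM in the other Tom+ CCl4 libraries. They were also raised in replicate 3 of oil (112 and 169 CPM, other oil libraries 21.3 to 40.5 CPM). Stellate cell and fibroblast markers (summed) stood at 110 CPM in Tom- CCl4 replicate 3 (others of that group 83.8 and 103) and 122 CPM in Tom+ (others 58.5 and 91.7). Endothelial markers stood at 453 CPM in Tom- CCl4 replicate 3 (others 470 and 462) and 312 CPM in Tom+ (others 225 and 268). The part of these markers in the mitotic levels was not tested.

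By the ranges alone, 3 members (Ccnd1, E2f1 and Mcm3) lay entirely above oil in Tom- CCl4 and 0 entirely below, beside 19.2% and 16.7% of all genes. In Tom+ 8 members were entirely above (Ccnd1, Ccne1, Ccne2, E2f8, Mcm2, Mcm6, Cdt1 and Wee1) and 0 entirely below, beside 14.6% and 14.7%. Of these 8, 6 are S phase genes and none is mitotic. Averaged over both fractions, Ccnd1 (log2 1.63 ± 0.16, adjusted p = 4.8e-05), Ccne1 (1.88 ± 0.44, adjusted p = 0.0085) and Cdt1 (1.08 ± 0.27, adjusted p = 0.012) were called higher and 0 lower, beside 6.18% and 2.26% of all genes. Here both fractions count as separate libraries, although those of one number share part of their deviations. With the counts of each same-numbered pair summed, Ccnd1 (1.70), Ccne1 (1.93) and Wee1 (0.91) were called, beside 591 genes called higher and 257 lower of 17770.

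**Figure D4:**
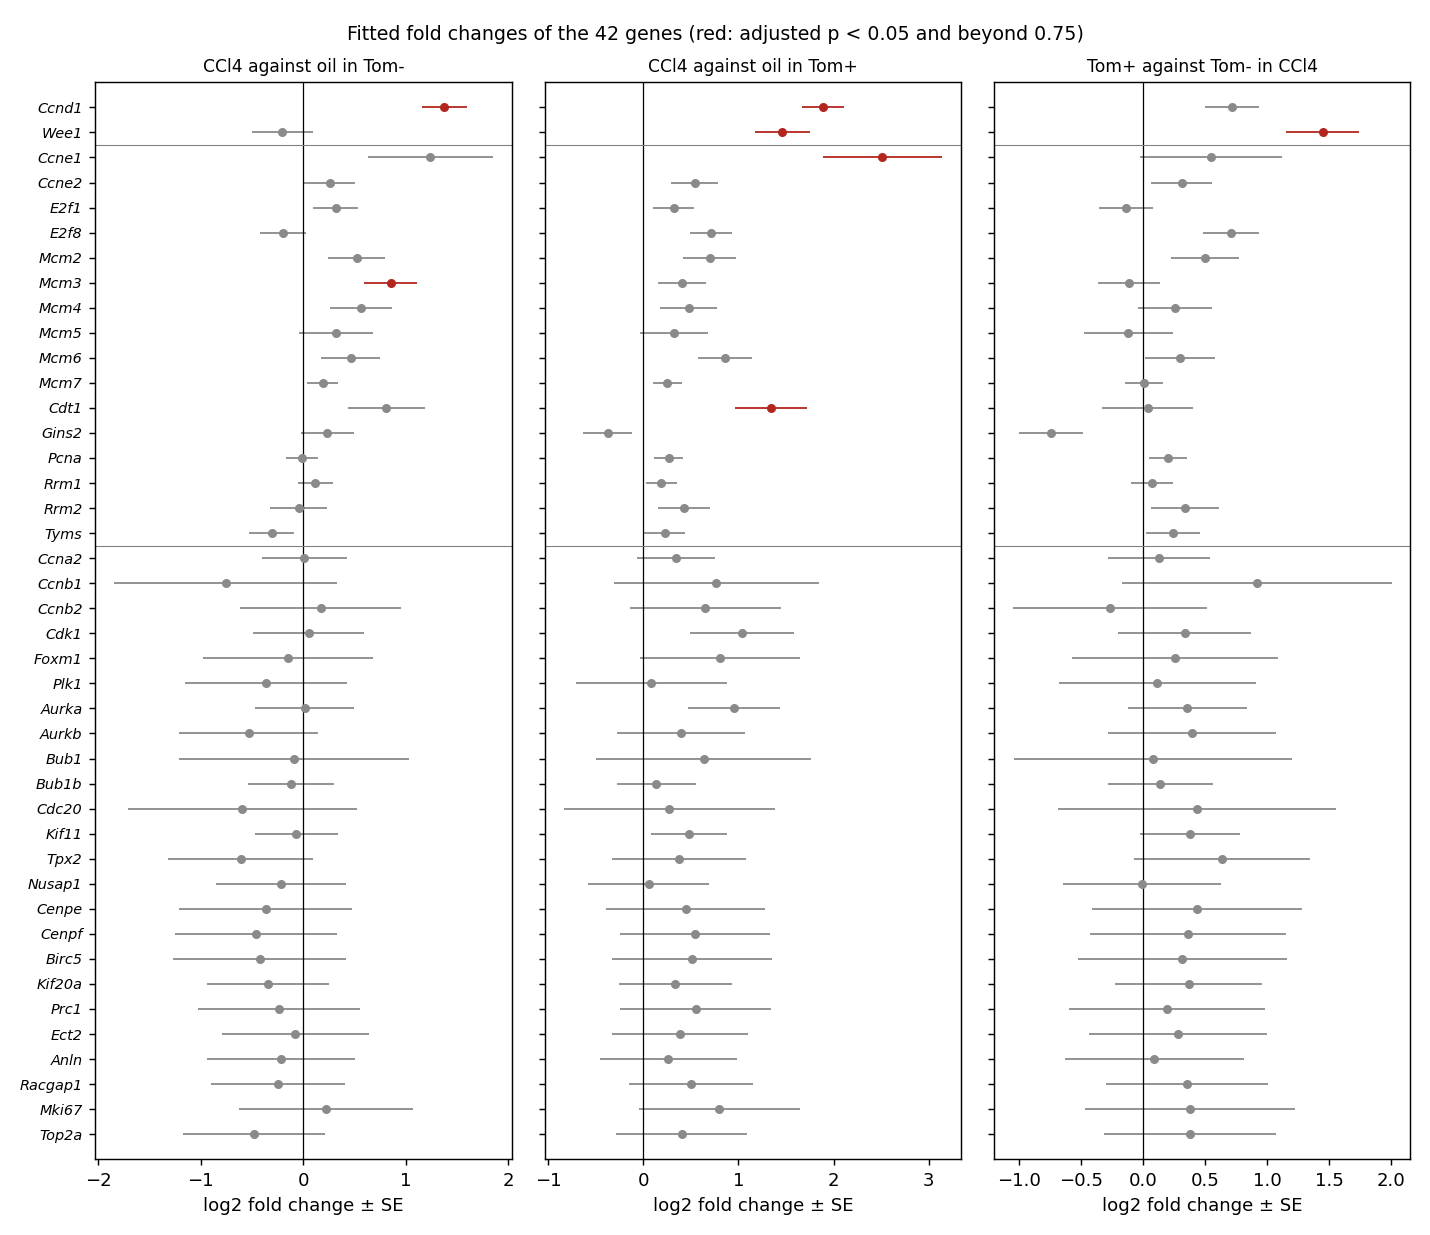
Fitted log2 fold change ± SE of the 42 genes in 3 contrasts, in red where called. Red points are Ccnd1 and Mcm3 (Tom-), Ccnd1, Wee1, Ccne1 and Cdt1 (Tom+) and Wee1 (Tom+ against Tom- in CCl4), and the error bars of the mitotic genes are longer than those of the S phase genes (median SE 0.72 and 0.26).

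Non-parenchymal markers moved with the treatment too. In Tom- all 12 endothelial markers were called higher with CCl4 (summed level 172 to 260 CPM in oil and 453 to 470 CPM in CCl4), and 0 of 12 in Tom+ (195 to 321 and 225 to 312 CPM). Of 11 stellate cell and fibroblast markers tested, 9 were called higher in Tom- and 7 in Tom+, from 9.81 to 29.5 CPM summed over the oil libraries to 58.5 to 122 CPM over the CCl4 libraries, although Acta2 reached at most 0.211 CPM. The 12 macrophage markers had a median log2 change of 1.46 in Tom- and 0.58 in Tom+, with 0 called. With a block on the replicate number, 11 were called higher in Tom- and 2 in Tom+, although no label pairs the oil and CCl4 libraries. In Tom+ 5 of 10 zone 3 (pericentral) markers were called higher with CCl4 and 8 of 10 zone 1 (periportal) markers lower. The part of these markers in the levels of Ccnd1 or of any other member was not tested.

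Tom+ against Tom- hepatocytes of the CCl4 livers were compared to see how cells with a history of p16Ink4a transcription differed from their neighbours. Wee1 was the one member called in the fit without a block, 2.73-fold higher in Tom+ (log2 1.45 ± 0.29, adjusted p = 0.015), beside 0.228% of all genes called higher and 1.74% called lower. The libraries of a number share part of their deviations, and with the replicate block 2 members were called higher and 1 lower, beside 0.729% and 3.27%. They were Wee1 (1.44 ± 0.26, adjusted p = 0.0025), Ccnb1 (1.05 ± 0.21, adjusted p = 0.00465) and Gins2 (-0.78 ± 0.19, adjusted p = 0.013). Within the pairs Wee1 was higher in Tom+ by 0.88, 1.97 and 1.51 and Ccnb1 by 1.31, 1.003 and 0.91 on the log2 scale. Gins2, at 6.80, 6.14 and 5.92 CPM in Tom- and 4.80, 2.66 and 3.72 CPM in Tom+, was lower in each pair. Without the block the call of Wee1 was lost without Tom+ CCl4 replicate 2 or Tom- CCl4 replicate 2.

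Ccnd1 was higher in Tom+ in each CCl4 pair (log2 0.73, 0.86 and 0.63). It passed the p threshold of the paired fit but not the fold threshold (log2 0.74 ± 0.07, adjusted p = 3e-05), and in the fit without the block its adjusted p was 0.073. E2f8 had the same outcome (paired log2 0.71 ± 0.12, adjusted p = 0.0016). Median differences in CCl4 were 0.22 over the S phase genes and 0.34 over the mitotic genes. Of the 24 mitotic genes Tom+ was higher in 14, 20 and 22 in pairs 1, 2 and 3, beside 50.9%, 49.7% and 50.4% of all genes. Without the paired replicate 3 libraries Ccnd1 (0.79) took the place of Wee1 as the one call of the fit without a block. With the replicate block but without pair 2 of CCl4, Wee1 (1.21, adjusted p = 0.055) and Gins2 (-0.58, adjusted p = 0.16) were no longer called, while Ccnb1 kept its call whichever single pair was left out. In these libraries 7 of 12 endothelial markers were called lower in Tom+ (9 with the block), as were 6 of 10 zone 1 markers (8 with the block), while 0 of 10 zone 3 markers were called higher without the block and 7 with it. The summed level of the 10 zone 1 markers was 4692 to 5975 CPM in Tom+ and 7734 to 9695 CPM in Tom-. Zone 3 markers reached 4964 to 6575 CPM in Tom+ and 2409 to 3678 CPM in Tom-. The part of these markers in the member differences was not tested.

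In oil, 0 of the 42 were called in either direction by edgeR, with and without the block. Over all genes 0% were called in each direction without the block, and with it 0.0583% were called higher and 0.169% lower. At an unadjusted p under 0.05 there were 0 S phase and 0 mitotic genes without the block and 1 and 10 with it, and DESeq2 and limma-voom called 0. The lowest unadjusted p values without the block were those of Tyms (log2 -0.30 ± 0.22), Cdt1 (-0.50 ± 0.38) and Mcm3 (0.33 ± 0.26). Tyms had 7.62, 7.67 and 7.50 CPM in Tom- oil and 5.54, 6.24 and 6.78 CPM in Tom+ oil, apart by a small margin. All 24 mitotic genes had a fitted value below 0 in Tom+ (median -0.41), beside 8327 of all 17140 genes. Within pairs 1, 2 and 3 Tom+ was higher in 1, 3 and 3 of the 24, beside 50.6%, 49.3% and 53.0% of all genes. By the ranges alone, 8 of the 24 lay entirely lower in Tom+ oil and 0 entirely higher, beside 950 and 1053 of all genes. S phase genes had a median of -0.11. The reporter went against the label in 1 library of pair 1 and in 1 of pair 2. It was thus high in both libraries of pair 1 (1794 CPM in Tom- and 1547 CPM in Tom+) and low in both of pair 2 (157 and 135 CPM). Only pair 3 set a low library against a high one (143 CPM in Tom- and 1225 CPM in Tom+). Without the 2 libraries that went against the label the mitotic median was -0.59. Of the 10 zone 3 markers, 0 were called without the block and 5 were called lower in Tom+ with it (median log2 -1.01), and their part in the mitotic values was not tested.

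The difference between the 2 contrasts, Tom+ against Tom- in CCl4 less the same in oil, tests whether the signed Tom+ less Tom- difference was the same in both treatments. Without the block edgeR called 0 members, with Wee1 nearest (log2 1.66 ± 0.41, adjusted p = 0.062), followed by E2f8 (0.91 ± 0.32, adjusted p = 0.15) and Tyms (0.54 ± 0.31, adjusted p = 0.37), and with 1 of 16 S phase and 0 of 24 mitotic genes at an unadjusted p under 0.05. DESeq2 called Wee1 and limma-voom called 0. Of all genes 0.204% were called higher and 0.957% lower. With the replicate block 9 members were called higher and 0 lower, beside 1.28% and 4.19%: the mitotic genes Ccnb1, Cdk1, Aurka, Cdc20, Tpx2, Cenpf and Prc1, together with E2f8 and Wee1. The reporter was high in both libraries of oil pair 1 and low in both of oil pair 2, so only oil pair 3 differed in it as labelled. For Ccnb1, Tom+ less Tom- was -1.04, -0.37 and -0.46 in the oil pairs and 1.31, 1.003 and 0.91 in the CCl4 pairs (log2). For E2f8 it was -0.28, -0.03 and -0.31 in oil and 0.77, 0.96 and 0.42 in CCl4. These 2 genes kept their call whichever single pair was left out. The number of members called higher then ranged from 3 to 10, beside 130 to 364 over all genes tested. Without the oil pairs 1 and 2, which hold the 2 libraries whose reporter goes against the label, 1 oil pair is left and 3 members were called, among them Ccnb1 (1.54, adjusted p = 0.041) and E2f8 (1.04, adjusted p = 0.026) but not Wee1 (0.96, adjusted p = 0.31) or the 6 other mitotic genes (adjusted p from 0.075 to 0.23). Marker lists differed in the same test. With the block 12 of 12 endothelial, 9 of 10 zone 1 and 4 of 12 macrophage markers were called lower and 9 of 10 zone 3 markers higher, and without it 3, 5 and 0 were called lower and 1 higher. The part of these markers in the 9 member calls was not tested.

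**Figure D5:**
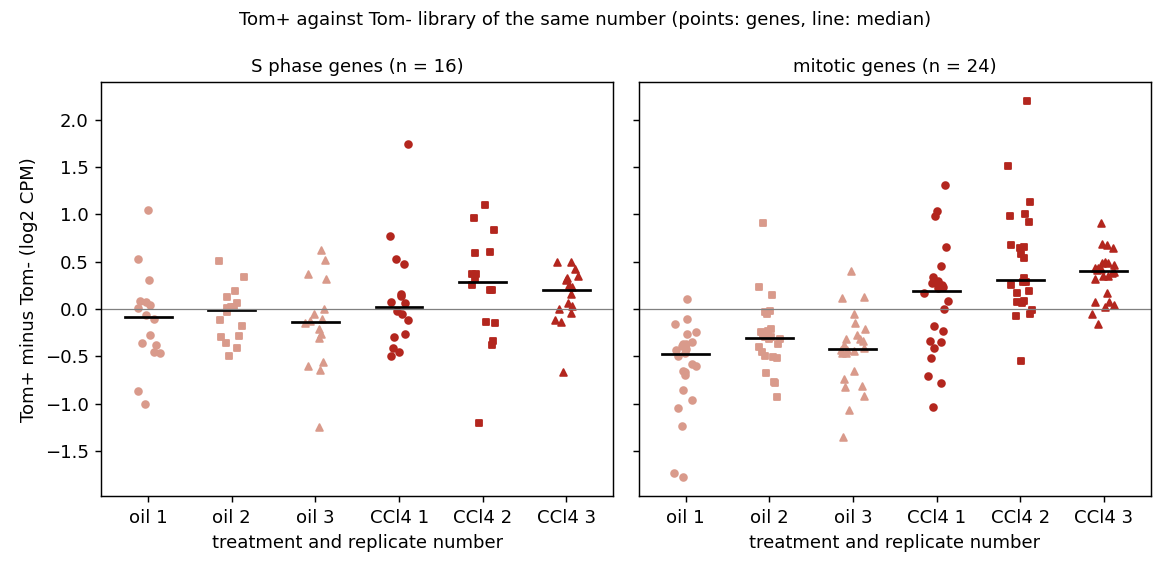
Tom+ minus Tom- within each same-numbered pair (log2 CPM), 1 point per gene and a line at the median, for the S phase genes (left) and the mitotic genes (right). The mitotic medians are -0.48, -0.31 and -0.43 in the oil pairs and 0.19, 0.31 and 0.40 in the CCl4 pairs, and the S phase medians lie between -0.14 and 0.29. Of the oil pairs, the reporter differed as labelled in pair 3 alone.

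Other genes of the same pathway were taken from lists written with earlier results of these data known. Of 36 other mitotic genes, 0 were called by edgeR for CCl4 against oil in either fraction (1 and 4 at an unadjusted p under 0.05 in Tom- and Tom+, and 0 and 1 called by DESeq2). Their summed level was 104 to 129 CPM in oil. With CCl4 it was 82.3, 79.7 and 193 CPM in Tom- and 96.2, 103 and 218 CPM in Tom+, so replicate 3 was again the highest. Of 25 other S phase genes tested 1 fell in Tom-, Mcm10, a replication initiation factor (log2 -0.85 ± 0.17, adjusted p = 0.0063), with 60.9, 57.0 and 41.3 CPM in oil and 33.9, 28.1 and 26.2 CPM in CCl4. Of 28 further cyclins, CDKs and E2F, RB or DREAM regulators, 2 rose in Tom-: Ccnd2, cyclin D2 (log2 1.51 ± 0.31, adjusted p = 0.0066), and Myc, which encodes a growth-promoting transcription factor (1.22 ± 0.32, adjusted p = 0.021). In Tom+ the one call was Cdk2, the partner of cyclin E (0.84 ± 0.16, adjusted p = 0.0063). Of all genes tested, 6.30% were called higher and 1.58% lower in Tom-, and 2.90% and 2.33% in Tom+, so these few calls were near the shares over all genes.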

How the data were processed

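Bulk RNA-seq of 12 libraries was analysed. Per the study's methods and the submitters' processing notes, reads were filtered by fastp (v0.23.2) and mapped by HISAT2 (v2.1.0) on mm10, and DESeq2 (v1.42.1) served for the study's own comparisons. The counting program, its strand setting and the annotation are not given in the sources used here. The authors deposited raw expected counts for each feature, 30.4% to 32.9% of the non-zero values being fractions. Whole counts had been assumed in the design, so they were rounded. Reads shared by near-identical copies or overlapping genes may be split.

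Counts were tested with edgeR (v4.0.16, R v4.3.3): TMM, filterByExpr, and a robust quasi-likelihood fit of the 12 libraries with 1 coefficient per group. Adjustment was by Benjamini-Hochberg over 17140 genes, at thresholds of 0.05 and log2 0.75. Standard errors (SE) were taken as the absolute log2 fold change over the square root of the F value of the test. CPM values use TMM, and log2 CPM per library a prior count of 0.5. TPM values were computed from the counts and the deposited feature lengths. Of the features 99.8% matched a symbol. The edgeR test was also run on simulated counts. Library totals of 37568669 to 75331523 counts put the level of 3 counts at 0.0369 to 0.0829 CPM.

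Replicates are separate samples by their labels. Nothing used here says that they are separate mice, so p-values measure the spread between these libraries, which may be technical. The pairing comes from the replicate numbers in the labels: deviations from the group means of same-numbered Tom+ and Tom- libraries correlated at 0.49 to 0.69 in CCl4 and 0.37 to 0.57 in oil, over 9663 genes. The fit with a replicate block is therefore given for Tom+ against Tom- where it changes a call. It has a coefficient for each same-numbered pair of a treatment. For CCl4 against oil the block was instead the replicate number over all 4 groups, which no label makes a pairing. Members and lists were chosen with earlier results of these data known.

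Genes given in every library were the role anchors (Mki67, Top2a, Ccna2, Ccnb1, Cdk1, Ccnd1, Ccne1, Ccne2, E2f1, E2f8, Mcm2, Mcm6, Pcna, Rrm2, Foxm1, Wee1, Cdt1 and Racgap1) and up to 6 called members per direction and contrast. Where none was called, the 3 with the lowest unadjusted p were named, and other members were named after their values were seen. Alternatives were DESeq2 (v1.42.0), limma-voom (limma v3.58.1), RLE, dropping the filter or requiring 10 counts in each library, the 6 libraries compared alone, the adjusted p alone, summed same-numbered libraries, the replicate block, leaving out each library, and leaving out the 2 oil libraries whose reporter went against the label. Leaving out both same-numbered libraries of a treatment, with or without the block, was chosen after seeing the data. Promoter windows were the 250 bases before each RefSeq start. Figures were drawn with matplotlib (v3.10.9).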

Additional observations from a re-analysis of the deposited data

Results flagged for a closer look

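With the replicate block, 9 members had a difference between Tom+ and Tom- in CCl4 that was not the one in oil, by the interaction test of edgeR over all genes, and each was higher in the direction of CCl4. The interaction was 1.67 ± 0.28 for Ccnb1 (log2, adjusted p = 0.0025), 1.64 ± 0.37 for Wee1 (adjusted p = 0.013), 1.07 ± 0.26 for Cdc20 (adjusted p = 0.018) and 1.03 ± 0.25 for Cenpf (adjusted p = 0.018). It was 1.01 ± 0.26 for Tpx2 (adjusted p = 0.025), 0.96 ± 0.23 for Aurka (adjusted p = 0.016), 0.94 ± 0.28 for Prc1 (adjusted p = 0.046), 0.93 ± 0.24 for Cdk1 (adjusted p = 0.022) and 0.91 ± 0.17 for E2f8 (adjusted p = 0.0045). In all 9 but Wee1, Tom+ was lower than Tom- in 3 of 3 oil pairs and higher in 3 of 3 CCl4 pairs, and Wee1 was lower in 2 of 3 oil pairs and higher in 3 of 3 CCl4 pairs. Of the oil pairs, only pair 3 set a low against a high reporter level (143 CPM in Tom- and 1225 CPM in Tom+). The reporter was high in both libraries of oil pair 1 (1794 and 1547 CPM) and low in both of oil pair 2 (157 and 135 CPM). Without the block edgeR called none of the 9, and DESeq2 called Wee1 alone. Without oil pairs 1 and 2, which hold the 2 libraries whose reporter goes against the label, Ccnb1 and E2f8 kept their call and the other 7 lost it (adjusted p from 0.075 to 0.31). In the same test with the block 12 of 12 endothelial and 9 of 10 zone 1 markers were called lower and 9 of 10 zone 3 markers higher, and their part in the member values was not tested. Prc1 lost its call whichever single pair was left out. Groups of 3 libraries were not searched for single outlying libraries.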

How the results depend on the processing

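No called result reversed under any alternative, while the mitotic medians, which carry no call, changed sign in some. Without the 2 oil libraries whose reporter went against the label, CCl4 against oil in Tom- had 1 member called higher, beside 759 of 17550 genes. The mitotic median of Tom+ against Tom- in oil was then -0.59. By the adjusted p alone the averaged contrast had 7 called higher, but the share over all genes by this looser rule is not given here. The replicate block gave 2 higher and 1 lower for Tom+ against Tom- in CCl4 and 9 higher for the difference, and it changed no other count of called members. For CCl4 against oil the correlations of same-numbered libraries were 0.019 to 0.11 in Tom- and 0.026 to 0.31 in Tom+. Libraries of different numbers had -0.11 to 0.023 and -0.28 to 0.15. No label pairs these samples, and whether a number stands for a batch was not tested. The block on the number left the counts at 2 (Tom-), 4 (Tom+) and 3 (averaged). The mitotic medians went from -0.23 to -0.58 in Tom-, from 0.46 to 0.058 in Tom+ and from 0.042 to -0.30 averaged. DESeq2 and dropping the filter each gave 1 call for the difference, Wee1. Leaving out 1 library or 1 same-numbered pair moved CCl4 against oil in Tom- to 1 to 2 higher and 0 to 16 lower, with medians of 0.075 to 0.38 (S phase) and -1.41 to 0.15 (mitotic). In Tom+ these ranges were 2 to 5 higher, 0 to 3 lower, 0.13 to 0.53 and -0.74 to 0.81. Averaged, they were 1 to 6 higher and 0 to 18 lower, with a mitotic median of -1.04 to 0.44. Over all 17285 to 17701 genes tested, these fits called 653 to 1237 higher in Tom-, 260 to 560 in Tom+ and 641 to 1361 averaged. The 16, 3 and 18 lower calls all came without both CCl4 replicate 3 libraries, beside 239, 272 and 339 of 17285 genes. Tom+ against Tom- in CCl4 had 0 to 2 higher, beside 0 to 46 over all genes, and an S phase median of -0.072 to 0.48. The difference had 0 to 1 higher, beside 0 to 75 over all genes, with medians of 0.011 to 0.45 (S phase) and -0.46 to 1.74 (mitotic). With the replicate block, leaving out 1 pair gave 1 to 4 higher and 0 to 1 lower in CCl4 (1 higher and 0 lower without pair 2, 4 higher without pair 3). For the difference it gave 3 to 10 higher and 0 to 1 lower: 5 and 4 higher without CCl4 pair 2 or 3, 4 and 3 without oil pair 1 or 2, 10 higher and 1 lower without oil pair 3, and 3 without oil pairs 1 and 2 together. Over all genes, the blocked fit in CCl4 had 52 of 17540 called higher without pair 2 and 94 of 17285 without pair 3. The blocked difference had 130 of 17540 higher without CCl4 pair 2 and 177 of 17285 without CCl4 pair 3. Without oil pair 1, 2 or 3 it had 176 of 17560, 146 of 17322 and 364 of 17522. The cause of these changes was not tested beyond the loss of samples. The lowest members, such as Bub1, rest on few counts.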

Other observations

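The average over both fractions counts same-numbered Tom+ and Tom- libraries as separate, although they share part of their deviations. There edgeR called 4 of 28 cell cycle regulators outside the set higher with CCl4 and 0 lower, beside 6.18% and 2.26% of all genes. They were Ccnd2 (log2 0.82 ± 0.22, adjusted p = 0.017), Myc (1.05 ± 0.22, adjusted p = 0.0051), Pkmyt1, a kinase that like WEE1 inhibits CDK1 (1.18 ± 0.30, adjusted p = 0.013), and Mybl2, the gene of B-MYB (1.57 ± 0.41, adjusted p = 0.015). Mybl2 was very low, with a mean of 0.373 CPM over the 12 libraries. Pkmyt1 had 0.906 to 1.80 CPM in the 6 oil libraries, 1.79, 2.32 and 4.73 CPM in Tom- CCl4 and 1.86, 1.86 and 4.45 CPM in Tom+ CCl4, again highest in replicate 3. Of 25 other S phase genes, Uhrf1, which maintains DNA methylation after replication, was the one called (1.22 ± 0.40, adjusted p = 0.044), with 2.16 and 2.86 CPM in the replicate 3 libraries and 0.708 to 0.829 CPM in the other 4 CCl4 libraries. With the replicate block, here the replicate number over all groups, the adjusted p of Uhrf1 was 0.056. This block and limma-voom each called 0 of the 25 (6 at an unadjusted p under 0.05 in each). The 4 regulators kept their call with the block, although it fits no separate effect for each Tom+ and Tom- pair. Mybl2 and Uhrf1 were named after their values were seen.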
